A study of Homo sapiens with 6 samples.

Results

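ARL2BP is a small protein that binds the GTP-bound forms of the related GTPases ARL2 and ARL3. This account follows the mRNA of ARL2BP, of ARL2 and ARL3, and of 4 proteins that work with them, TBCD, TBCE, UNC119 and PDE6D, in a lung cancer cell line after knockdown of the long noncoding RNA HKlincR1 (AC093323.3). ARL2BP was chosen by its measured fall in RPKM between these same libraries, so its values are given as a description with no test. The other genes were chosen as its known partners. Of the 7 genes, 6 were found among the 57773 genes of the expression table. TBCE was not found under its GENCODE v44 identifier and was not analysed here.

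The cells were H460, an established human non-small-cell lung cancer line. There were 3 libraries with the non-targeting control siRNA (siNT) and 3 with siHKlincR1_2 (siHKlincR1), labelled as biological replicates. Each siRNA carried the ON-TARGETplus modification and was transfected at 50 nM for 48 hours, so both groups shared the transfection and the modification. The knockdown group rests on 1 siRNA sequence in 1 cell line, and an effect of losing HKlincR1 and an effect of this siRNA on other transcripts cannot be told apart in it.

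ARL2 and ARL3 are small GTPases of the ARF family. With the tubulin cofactors TBCD and TBCE, ARL2 takes part in building the tubulin dimer from alpha and beta tubulin, and a share of ARL2 and ARL2BP lies in mitochondria. ARL3 acts mainly in cilia, where its GTP-bound form makes the carriers UNC119 and PDE6D release their lipid-tagged cargo. UNC119 carries myristoylated proteins and PDE6D carries prenylated ones. ARL2BP mutations are a known cause of retinitis pigmentosa, and the same holds for RP2, the GTPase-activating protein of ARL3. H460 cells are not a ciliated or retinal tissue. FOXJ1, the regulator of multiciliated cells, did not pass 0.0124 RPKM in any library. The whole lists of markers summed to between 0.0268 and 0.106 RPKM for multiciliated cells (4 genes) and between 0.0535 and 0.149 RPKM for photoreceptors (5 genes), with GNAT1 listed at 0 in every library. Of 5 epithelial markers, KRT8, KRT18 and KRT19 were well expressed (28.1 to 88.5 RPKM), whereas EPCAM and CDH1 did not pass 0.110 RPKM in any library. None of 4 lung epithelial markers passed 0.0294 RPKM.

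The siRNA sequence is shown because ARL2BP is the 1 gene among the members whose 3′ UTR holds matches to its seed. The strand equal to the HKlincR1 transcript and the complementary guide strand are printed first, each 5′ to 3′. Capitals mark positions 2 to 8 of the guide, which form the seed, and the bases that pair with them. The next lines give the windows of 19 bases in ARL2BP, and in TBCD, that lie opposite the guide at each match, with the 7 matching bases in capitals.
siHKlincR1_2, strand equal to the target: gaaguauacucGUGUGCUu
siHKlincR1_2, guide strand: aAGCACACgaguauacuuc
ARL2BP 3′ UTR, chr16:57286945-57286963, plus strand: tattatatgctGTGTGCTt
ARL2BP 3′ UTR, chr16:57287041-57287059, plus strand: gaatgtatgctGTGTGCTa
TBCD coding exon 14, chr17:80828178-80828196, plus strand: ccgcctgctacGTGTGCTg

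Coordinates are GRCh37, and transcripts are those of GENCODE v44 mapped to that build. The ARL2BP gene spans 57279171 to 57287547 on the plus strand of chromosome 16, and both matches lie in its last exon, exon 6 of 6, in a 3′ UTR of 1368 bases. They start 96 bases apart, at positions 777 and 873 of the 3′ UTR. The ARL2BP windows are equal to each other at 15 of 19 bases, including an unbroken run of 13 that ends with the match. Against the siRNA target they are equal at 9 and 10 of 19 bases. The motif GTGTGCT was searched on the transcript strand only. The 3′ UTRs of ARL2, ARL3, TBCD, UNC119 and PDE6D, and that of TBCE, hold 0 copies. Among canonical 3′ UTRs of the tested genes 14.1% hold at least 1 copy (1513 of 10761) and 1.98% hold 2 or more. TBCD has its single copy in the coding sequence. None of the 2370 human mature miRNAs listed by RefSeq has the seed AGCACAC. A match of these letters is a description of the sequence, and its part in any change of level was not tested.

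Levels are given in RPKM, read counts scaled by gene length and by library size. The length is that of the authors' gene model, worked back from the values. For some genes it is far above that of the canonical transcript. It was 5128 against 1379 bases for UNC119, 2084 against 932 for ARL2 and 10472 against 7159 for TBCD. For ARL2BP it was 2124 against 1969, for ARL3 3844 against 3834 and for PDE6D 1425 against 1140. Levels compared between genes therefore depend on these lengths. Library totals worked back from the values lay between 24980280 and 30521000 reads. Fold changes are siHKlincR1 against siNT on the scale of log2(RPKM + 0.1), fitted with limma over 15451 genes, those whose mean reached 0.5 RPKM. To pass, a gene needed an adjusted p under 0.05 together with a change of more than 1.5-fold. HKlincR1 itself was at 3.47 to 3.83 RPKM with siNT and 0.390 to 0.628 RPKM with siHKlincR1, so the knockdown is seen in every library. The third library of each group stood somewhat apart. Its median absolute log2 difference from the other libraries of its group was 0.153 and 0.161 with siNT and 0.176 and 0.215 with siHKlincR1, against 0.0908 and 0.123 between the first and second libraries. Libraries of the same number also deviated together from their group means (correlations across genes of 0.142, 0.137 and 0.266), so the model was also fitted with a replicate block. The first siNT and second siHKlincR1 libraries, of different numbers, had a correlation of 0.113.

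ARL2BP had the highest RPKM of the 6 genes in both groups. It was at 45.8, 47.3 and 49.8 RPKM in the siNT libraries, from 2702, 3069 and 2644 reads, and at 14.5, 15.4 and 12.1 RPKM in the siHKlincR1 libraries, from 878, 946 and 767 reads. Every siHKlincR1 library lay below every siNT library by a wide margin. The mean went from 47.7 ± 2.02 to 14.0 ± 1.73 RPKM (SD, n = 3), that is 70.6% lower. On the log2 scale the difference was -1.77 (SE 0.10), the 16th lowest value of the 15451 tested genes. Within same-numbered libraries it was -1.65, -1.61 and -2.04. The third siHKlincR1 library had the lowest ARL2BP level, as it had the lowest level of HKlincR1. With siNT, ARL2BP had a higher RPKM than 93.7% of all tested genes. In these bulk libraries, fewer cells that express a gene and less of its RNA per cell cannot be told apart.

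**Figure D1:**
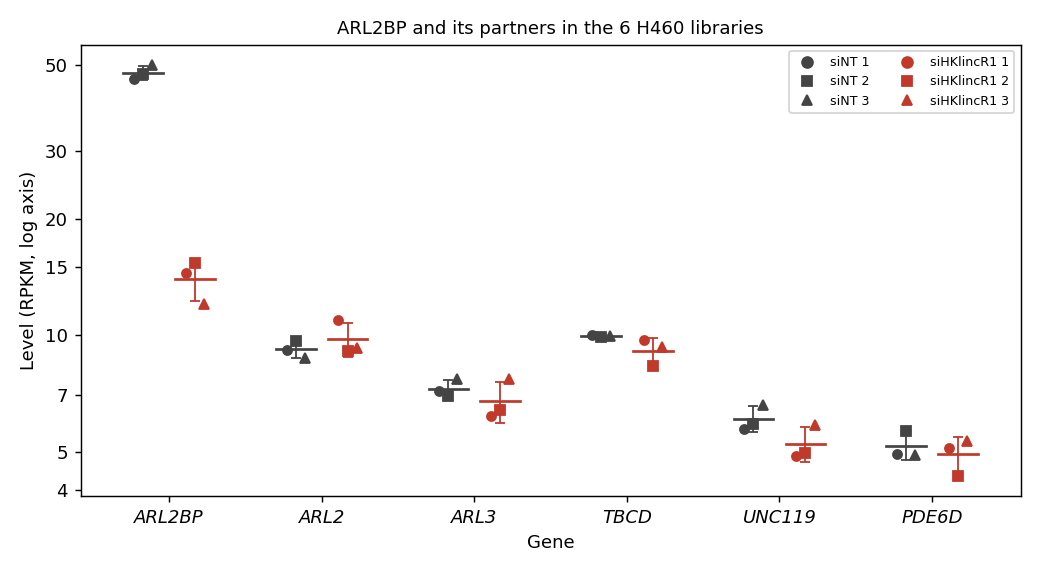
Level of each gene in RPKM (log axis) in the 3 siNT libraries (dark) and the 3 siHKlincR1 libraries (red), with the mean and SD of each group and the marker shape giving the replicate number. ARL2BP fell from between 45.8 and 49.8 to between 12.1 and 15.4 RPKM, while the 5 partners stayed between 4.34 and 10.9 RPKM in both groups.

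None of the 5 partners passed the test, where 0.362% of all tested genes were called in either direction, and none passed with the replicate block, where 1.32% were (0.809% lower and 0.511% higher). At an unadjusted p under 0.05 limma also gave 0 of the 5, and voom, a count-based limma fit on reads worked back from the RPKM, called 0. The GTPases come first. ARL2 was at 9.18, 9.67 and 8.76 RPKM with siNT and at 10.9, 9.11 and 9.28 RPKM with siHKlincR1. The groups overlapped, and the highest value was that of the first siHKlincR1 library. The log2 fold change of ARL2 was 0.08 (95% interval -0.13 to 0.30, limma adjusted p = 0.665). ARL3 was at 7.17, 6.96 and 7.71 RPKM with siNT and at 6.18, 6.43 and 7.71 RPKM with siHKlincR1. Here the third library was the highest of each group, and the third libraries of both groups were at the same level. The log2 fold change of ARL3 was -0.11 (95% interval -0.35 to 0.13, limma adjusted p = 0.609). For both GTPases the interval leaves out a change of 1.5-fold in either direction.

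TBCD binds beta tubulin and, with TBCE and ARL2, forms the machine that assembles the tubulin dimer. It was at 10.0, 9.88 and 9.94 RPKM with siNT and at 9.72, 8.33 and 9.34 RPKM with siHKlincR1. The siNT libraries were close together (SD 0.0752 RPKM, n = 3), and all 3 siHKlincR1 libraries were below them. Among the 5 partners TBCD was the only one whose groups did not overlap, and 22% of all tested genes had groups that did not overlap. Its log2 fold change was -0.13 (95% interval -0.31 to 0.06, limma adjusted p = 0.441). In same-numbered libraries the differences were -0.04, -0.24 and -0.09.

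The carriers UNC119 and PDE6D had the lowest RPKM of the set. UNC119 was at 5.75, 5.92 and 6.63 RPKM with siNT and at 4.89, 4.98 and 5.88 RPKM with siHKlincR1. The groups overlapped because the third siHKlincR1 library reached the level of the lower siNT libraries. Within same-numbered libraries UNC119 was lower each time, by -0.23, -0.24 and -0.17 on the log2 scale. The log2 fold change was -0.21 (95% interval -0.45 to 0.03, limma adjusted p = 0.340). The replicate block gave an interval of -0.37 to -0.05 and an adjusted p of 0.121. PDE6D was at 4.96, 5.66 and 4.92 RPKM with siNT and at 5.13, 4.34 and 5.32 RPKM with siHKlincR1. Its second libraries held the highest siNT value and the lowest siHKlincR1 value, and the other libraries were close to each other. The log2 fold change of PDE6D was -0.07 (95% interval -0.32 to 0.18, limma adjusted p = 0.751). PDE6D rests on 175 to 246 reads a library, for which counting error alone gives a spread of about 7.0% of the mean. The measured spread was 8.04% with siNT and 10.5% with siHKlincR1.

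In the siNT libraries the order of the levels in RPKM was ARL2BP, TBCD, ARL2, ARL3, UNC119 and PDE6D. This order depends on the gene lengths used. With siHKlincR1, ARL2 and TBCD changed places. Neighbours in this order were compared within the 6 libraries with an exact two-sided sign-flip permutation test, whose smallest possible p is 0.0312, and the p-values were adjusted over 4 pairs. ARL2 was above ARL3 in 6 of 6 libraries, by 0.43 on the log2 scale on average, and ARL3 was above UNC119 in 6 of 6 libraries, by 0.31. Both had an exact p of 0.0312 and an adjusted p of 0.0625. UNC119 was above PDE6D in 5 of 6 libraries, by 0.16 (exact p = 0.0938, adjusted p = 0.125), and TBCD above ARL2 in 4 of 6, by 0.0081 (exact p and adjusted p = 0.812). None of the 4 pairs passed after adjustment, and because the order was read from the same libraries these values only describe it. In the siNT libraries alone the ranges of all 4 pairs were separate, and with siHKlincR1 those of TBCD and ARL2 and of UNC119 and PDE6D overlapped. ARL2BP was above TBCD in 6 of 6 libraries, by 0.37 to 2.31 on this scale, given as a description.

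The fall of ARL2BP changed its amount relative to its GTPases. In the siNT libraries ARL2BP mRNA was at 4.99, 4.90 and 5.69 times the RPKM of ARL2, and in the siHKlincR1 libraries at 1.33, 1.69 and 1.30 times. Against ARL3 it was at 6.39, 6.81 and 6.47 times with siNT and at 2.35, 2.39 and 1.56 times with siHKlincR1. In RPKM, ARL2BP was therefore still above both GTPases in every library. With siHKlincR1 its order against ARL2 depends on the gene lengths used. The length used for ARL2 was 2084 bases, against 932 in its canonical transcript. These ratios take the fall of ARL2BP in and are not tested. The ratio of ARL2 to ARL3 was 1.27 ± 0.127 with siNT and 1.46 ± 0.285 with siHKlincR1 (SD, n = 3), with overlapping groups (exact two-sided permutation test, p = 0.40). The ratio of UNC119 to PDE6D was 1.18 ± 0.153 and 1.07 ± 0.102 (exact permutation p = 0.40). UNC119 was at 0.528 ± 0.0396 and 0.496 ± 0.0326 times the RPKM of UNC119B, its close relative with the same kind of cargo (exact permutation p = 0.50). Adjusted over these 3 ratios each p was 0.50, and 3 libraries against 3 allow no p under 0.10.

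**Figure D2:**
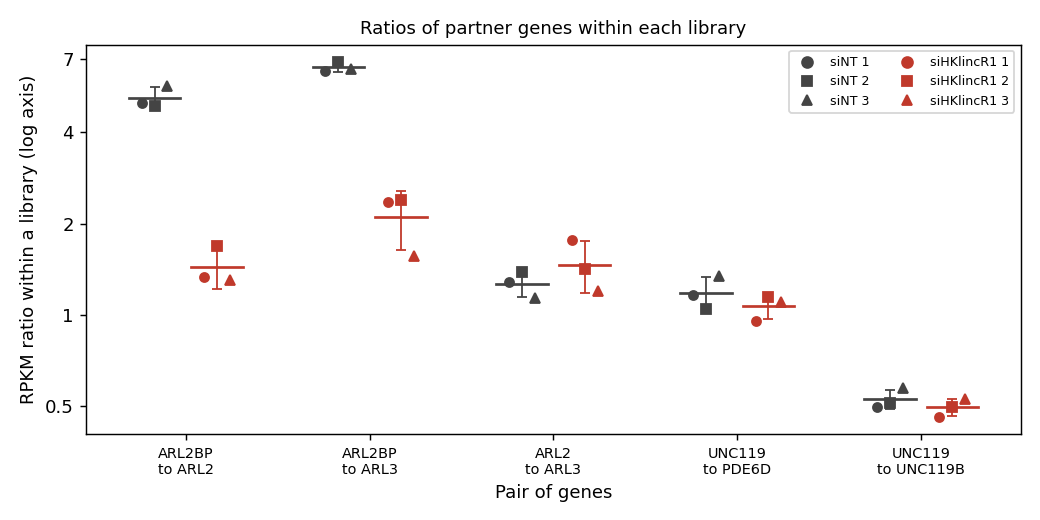
RPKM ratio of the genes in each pair within each library (log axis), with the mean and SD of each group, siNT in dark and siHKlincR1 in red. The mean ratio of ARL2BP to ARL2 fell from 5.19 to 1.44 and that to ARL3 from 6.56 to 2.10, and the groups of the other 3 ratios overlapped.

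Reads of overlapping genes and near-identical copies could affect these levels. PLLP, a gene for a membrane protein, lies on the opposite strand and shares 1733 of the 1994 exonic bases of ARL2BP in GENCODE v44. PLLP was at 1.61 to 2.12 RPKM with siNT and 1.77 to 2.10 RPKM with siHKlincR1 (log2 fold change 0.03, limma adjusted p = 0.934), and so did not follow ARL2BP. The libraries were strand-specific, but the strand setting of the counting is not given in the sources used here. Reads were counted on Ensembl 74 gene models, and the overlaps, taken from GENCODE v44, were not examined in those models. The nearest gene upstream, RSPRY1, was at 10.5 to 10.9 RPKM with siNT and 11.3 to 11.6 RPKM with siHKlincR1 (log2 fold change 0.09, limma adjusted p = 0.459). The 9 annotated ARL2BP pseudogenes had 0 to 5 reads in any library. The readthrough gene ARL2-SNX15, whose exons overlap ARL2, was listed at 0 in every library. B3GNTL1 and COPS7B, which overlap TBCD and PDE6D on the opposite strand, had log2 fold changes of 0.19 and 0.06 (limma adjusted p = 0.513 and 0.695).

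HKlincR1 (Pearson r = 0.999) and ARHGAP1 (0.998) were the genes whose levels followed ARL2BP most closely over the 6 libraries, out of 13400 genes whose mean reached 1 RPKM. ARHGAP1 is a GTPase-activating protein of small GTPases that act on the cytoskeleton. These values mainly reflect the split between the groups, which all 6 points share, and 159 genes had an r of at least 0.95. ARHGAP1 went from 5.80 ± 0.0665 to 1.94 ± 0.182 RPKM (SD, n = 3), and its 3′ UTR holds 0 copies of GTGTGCT. Among the partners r with ARL2BP ran from -0.39 for ARL2 to 0.67 for UNC119.

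Beyond the members, 75 genes of the same pathways were listed, of which 58 were tested. Among them 2 were lower by the test, TRIM23 and TUBA1C, and 0 were higher, where 0.356% of all tested genes were called lower and 0.00647% higher. The replicate block gave the same counts, and voom called 3 lower and 0 higher, where it called 0.544% of all tested genes lower and 0.0194% higher (0.563% in all). At an unadjusted p under 0.05 limma without the block gave 12 lower and 3 higher of the 58, where 9.19% of all tested genes were lower and 7.04% higher at that level. Of these, 6 lower genes were tubulins, and 5 lower and 2 higher genes belonged to the ARF and ARL family. The median log2 fold change of the 58 genes was -0.09, against 0.0011 for all tested genes. Leaving out any 1 of the siNT libraries, or the first or the second siHKlincR1 library, left 0 of the 58 past the test. Among all tested genes those settings called 7 to 18 lower and 0 to 2 higher. With so few calls, the 0 says little about the 58 genes. Leaving out the third siHKlincR1 library gave 12. In that setting 3.35% of all tested genes were called (2.03% lower and 1.32% higher).

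The other tubulin cofactors, which fold and sort alpha and beta tubulin, held no call. Of 6 tested members of this list (TBCA, TBCB, TBCC, TBCD, TBCEL and TBCCD1) none passed with limma or voom, 1 had an unadjusted p under 0.05 (TBCEL), 4 were above 0 and 2 below, and the median log2 fold change was 0.05. TBCA, which binds beta tubulin, had by far the highest RPKM, at 47.6 ± 2.82 with siNT and 51.5 ± 2.98 with siHKlincR1 (SD, n = 3). TBCC, which stimulates GTP hydrolysis by ARL2, was at 5.84 ± 0.445 and 6.05 ± 0.0771 RPKM. TBCEL, a relative of TBCE, had the largest value (0.25, limma adjusted p = 0.304), with all siHKlincR1 libraries above all siNT libraries.

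The regulators and other binding partners of ARL2 and ARL3 showed no call apart from ARL2BP. Over all tested genes 0.362% were called in either direction. Of the 9 tested, 5 were below 0 and 4 above, and ARL2BP, chosen for its fall, is among those below. At an unadjusted p under 0.05 limma added STAT3 alone, where 9.19% of all tested genes were lower and 7.04% higher. RP2 was at 6.34, 6.44 and 6.29 RPKM with siNT and at 4.71, 4.07 and 6.41 RPKM with siHKlincR1. The first and second siHKlincR1 libraries were thus low and the third at the siNT level, and the log2 fold change of -0.35 did not pass (SE 0.16, limma adjusted p = 0.324). STAT3, a transcription factor that ARL2BP can bind, was at -0.19 on the log2 scale (limma adjusted p = 0.298). CFAP36, a relative of ARL2BP that binds ARL3, was at 0.04 (limma adjusted p = 0.766).

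None of the 5 lipid-binding carriers passed with limma or voom, 0 had an unadjusted p under 0.05, and all 5 had values below 0, from -0.24 for ARHGDIA, a carrier of prenylated small GTPases, to -0.07 for PDE6D, with a median of -0.13. UNC119B was at 11.6, 11.5 and 11.6 RPKM with siNT and 10.6, 10.0 and 11.2 RPKM with siHKlincR1, without overlap (log2 fold change -0.13, limma adjusted p = 0.383). Its 3′ UTR holds 1 copy of GTGTGCT. Of their 9 tested cargoes none passed with either, and 0 had an unadjusted p under 0.05, with 6 below 0 and 3 above. HRAS, a prenylated GTPase, had the lowest value (-0.31, limma adjusted p = 0.373) and RPGR, a ciliary protein that binds PDE6D, the highest (0.29, limma adjusted p = 0.356). The retinal cargo GNAT1 and the lymphocyte kinase LCK were listed at 0 in every library. The mitochondrial fusion proteins MFN1, MFN2 and OPA1, with ELMOD2 and SLC25A4, were all tested and none passed, with 0 at an unadjusted p under 0.05 in limma and 0 called by voom, and with values from -0.16 for MFN2 to 0.13 for OPA1.

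**Figure D3:**
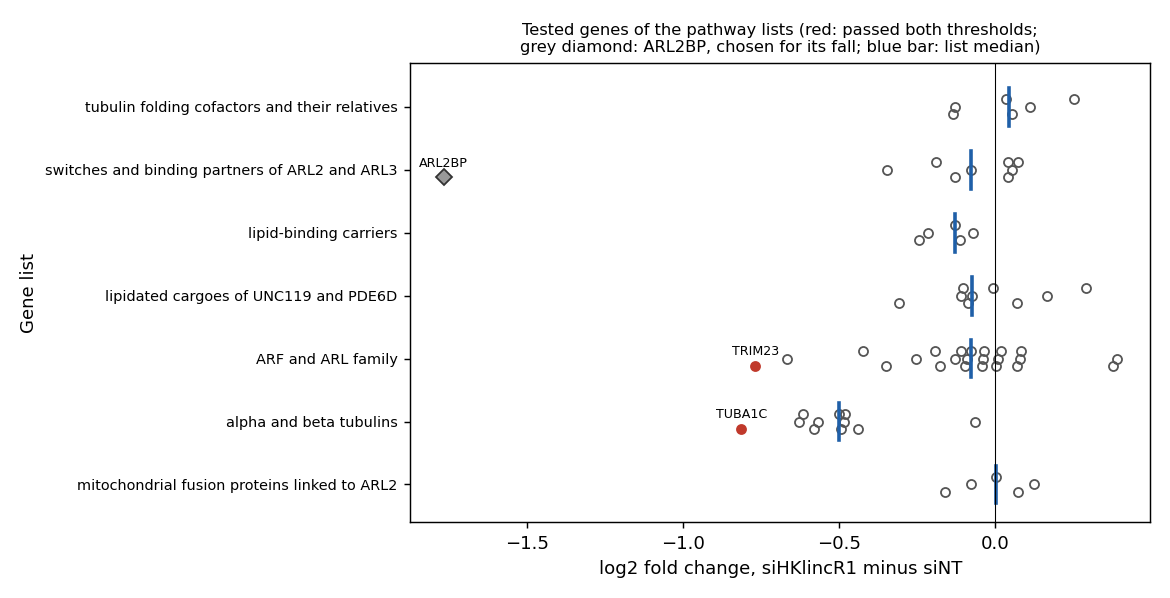
Log2 fold change, siHKlincR1 minus siNT, of each tested gene in the 7 pathway lists, with the median of each list as a bar. TRIM23 and TUBA1C passed the test, ARL2BP is drawn apart because it was chosen for its fall, and the tubulins have the lowest median (-0.50).

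In the ARF and ARL family 23 of 29 genes were tested, 15 of them below 0 and 8 above, with a median of -0.07. TRIM23, a ubiquitin ligase that carries an ARF domain, was the 1 gene that passed. It was at 3.03, 3.39 and 3.25 RPKM with siNT and at 1.82, 1.96 and 1.77 RPKM with siHKlincR1. The log2 fold change was -0.77 (SE 0.10, limma adjusted p = 0.0311). With any 1 library other than the third siHKlincR1 library left out, the limma adjusted p was between 0.0951 and 0.207. The log2 fold change of TRIM23 stayed between -0.81 and -0.73 in those settings. ARF3, a GTPase of the Golgi, was at -0.42 on the log2 scale (limma adjusted p = 0.140). The 3′ UTRs of TRIM23 and ARF3 each hold 1 copy of GTGTGCT. Of the 23 genes 6 had all siHKlincR1 libraries below all siNT libraries, where 11.9% of all tested genes did, and 1 had them all above, where 10.1% did. ARL2 and ARL3 were thus among the members of their family with overlapping groups.

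The alpha and beta tubulins, the clients of TBCD, TBCE and ARL2, had the lowest values of the lists. Of 11 tested genes all 11 were below 0, with a median log2 fold change of -0.50, and 1 passed. TUBA1C, an alpha tubulin, was at 141, 139 and 156 RPKM with siNT and at 82.4, 73.5 and 93.0 RPKM with siHKlincR1. Its log2 fold change was -0.81 (SE 0.10, limma adjusted p = 0.0283). With a library left out the limma adjusted p ran from 0.0165 without the third siHKlincR1 library to 0.182 without the first. The log2 fold change of TUBA1C then ran from -0.90 without the third siHKlincR1 library to -0.73 without the second. The 3′ UTR of TUBA1C holds 1 copy of GTGTGCT. TUBA4A (-0.63, limma adjusted p = 0.317) and TUBB2B (-0.61, limma adjusted p = 0.111) followed. Against the siNT library of the same number, 11 of the 11 tubulins were lower in the first siHKlincR1 library (median -0.48), 11 in the second (median -0.81) and 9 in the third (median -0.26). With the replicate block TUBA1C was again the 1 gene that passed. Relative to the siNT mean, the median over the 11 tubulins was -0.64 in the first, -0.91 in the second and -0.04 in the third siHKlincR1 library, and 0.21 in the third siNT library. Without the third siHKlincR1 library 10 of the 11 passed as lower, where 2.03% of all tested genes did. For ARL2BP the same measure was -1.71, -1.62 and -1.97, so that the library with the highest tubulin levels of its group had the lowest ARL2BP level. For the 5 partners the medians were -0.03, -0.24 and 0.01. Tubulin genes share long stretches of near-identical sequence, so that reads may be split between them.

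**Figure D4:**
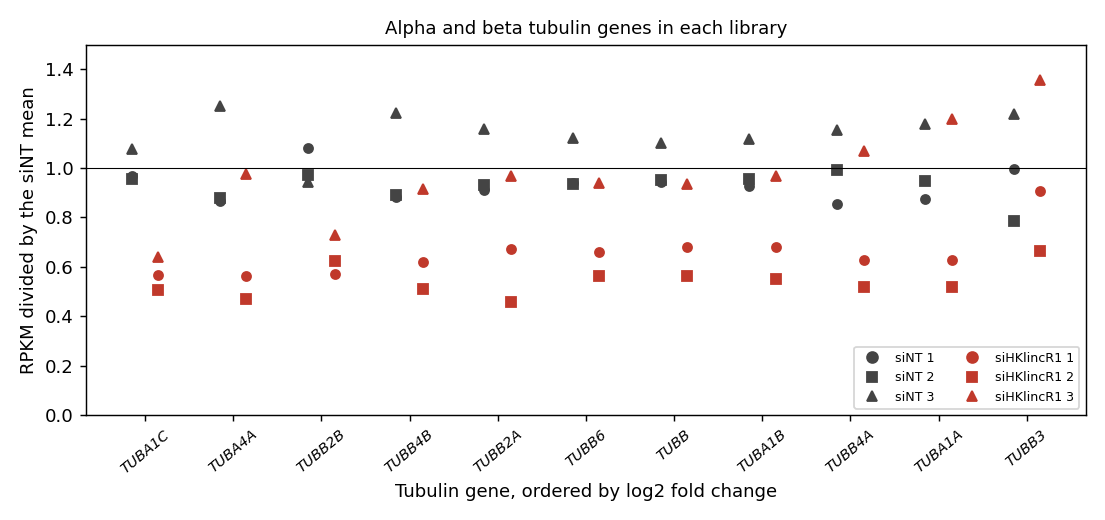
RPKM of each of the 11 tested tubulin genes divided by its siNT mean, in each siNT (dark) and siHKlincR1 (red) library, with the marker shape giving the replicate number and genes ordered by log2 fold change. The third siHKlincR1 library sits near the siNT mean for most genes, while TUBA1C and TUBB2B are low in all 3 siHKlincR1 libraries.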

How the data were processed

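Polyadenylated RNA of 6 H460 cultures was sequenced as strand-specific paired-end libraries (75 bp reads, 200 ng of total RNA, 14 amplification cycles). The authors counted reads per gene with Rsubread (featureCounts) on Ensembl 74 gene models of GRCh37 and deposited RPKM values, which were used as they are. The submitters' processing notes name CASAVA 1.8.2, and the aligner is not given in the sources used here.

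Symbols came from a table of gene names keyed by GENCODE 44 identifiers, in which 55538 of 57773 identifiers were found. All 152380 nonzero values came out as whole reads within a relative tolerance of 1e-06, with 89.9% to 91.1% of each library on listed genes. Fold changes came from linear models (limma 3.58.1, R 4.3.3) of log2(RPKM + 0.1) over 15451 genes, with moderated variances that followed the mean level and Benjamini-Hochberg adjustment over all of them. The replicate number was used as a block in a second fit, since every same-numbered pair correlated above 0.1. The first siNT and second siHKlincR1 libraries did so too (0.113), and the other pairs of different numbers were below 0. These correlations do not settle the pairing of the first and second libraries. The steps were tested on simulated data. The members, the gene lists and the rule for named genes (members, called genes, the 3 largest changes of each list, the 3 genes most like ARL2BP, overlapping and neighbouring genes) were chosen with earlier results of these data known. TBCA, TBCC, CFAP36, GNAT1, LCK and the ARL2BP pseudogenes were named in addition, after their values were seen. Some genes that the rule names are not reported here. The planned ratio of TBCD to TBCE was not computed, and the order of levels was tested over 4 pairs, because TBCE was not found and ARL2BP is described only. Intervals cover the spread between libraries.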

Additional observations from a re-analysis of the deposited data

How the results depend on the processing

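Over 16 settings, the reported one included, the pseudocount, the filter, the scaling, the variance trend, the model or the libraries used were changed. ARL2BP stayed between -1.84 and -1.66 on the log2 scale. ARL2, ARL3, TBCD, UNC119 and PDE6D passed in none of them, and the replicate block changed no call among the members. With 1 library left out ARL2 ran from 0.0000056 (without the first siHKlincR1 replicate) to 0.13 (without the second), ARL3 from -0.20 (without the third) to -0.05 (without the first), TBCD from -0.17 (without the first) to -0.06 (without the second) and UNC119 from -0.30 (without the third) to -0.15 (without the third siNT replicate). PDE6D ran from -0.13 to 0.016, and it changed sign without the second siHKlincR1 replicate (0.016, limma adjusted p = 0.960). The number of genes called over the whole table depended on the setting. With the replicate block 125 genes were lower and 79 higher, with voom on reads worked back from RPKM 84 and 3, and without a filter 34 and 12. Without the trend 16 were lower, and with a pseudocount of 0.01 there were 0 higher genes by limma. Leaving out 1 library gave 7 to 314 lower and 0 to 204 higher genes, the highest counts without the third siHKlincR1 replicate. Of the pathway genes other than the members, 0 were called without a filter, 0 without the trend, 1 with a pseudocount of 1, and 0 to 12 with 1 library left out. A pseudocount of 1 compresses the low RPKM of TRIM23, and the cause of the other changes was not tested. With 6 bases of the seed, 1 match was found in the 3′ UTR of ARL3 and of TBCE and 4 in that of TBCD.

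The SE of PDE6D (0.11, from 175 to 246 reads a library) was close to those of ARL3 and UNC119 (each 0.10, from 676 to 926 reads). The table holds mRNA levels only, and proteins were not measured in these libraries.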
